A study of Mus musculus with 5 samples.

Results

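Acid-sensing ion channels and pacemaker channels were examined across the cell types of the mouse dorsal root ganglion, through 6 genes: Asic1, Asic2 and Asic3 of the acid-sensing family, and Hcn2, Hcn3 and Hcn4 of the hyperpolarization-activated family. The genes were chosen by name, and all 6 of 6 were found among the 17267 genes of a table of raw unique molecular identifier (UMI) counts, in which each UMI stands for 1 captured transcript. Cells came from the lumbar dorsal root ganglia of 5 untreated wild-type C57BL/6 mice, 18 weeks old and of both sexes, with all mice in a single group, WT. The ganglia were dissociated with enzymes and run on a droplet platform that reads the 3′ ends of transcripts. The table held 3352 cells and 224553219 UMIs, with 1 library per mouse of 164 to 1370 cells and a median of 57691.5 UMIs per cell. The study's annotation put every cell in 1 of 14 types: 3 neurofilament types (NF), 3 non-peptidergic types (NP), 5 peptidergic types (PEP), neurons marked by Th, satellite glia and endothelial cells. The study's stated filter removes cells with over 10% mitochondrial UMIs, and the file's own rows put 188 of the 3352 cells above it and 3164 at or under it. These types were clustered by the study from the same counts, so the tests below compare groups that the counts themselves defined.

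Acid-sensing ion channels are sodium channels of the degenerin family that open when the fluid outside the cell turns acid, as it does in inflamed or ischaemic tissue. They assemble as trimers of like or unlike subunits: ASIC1 and ASIC3 form channels that open in mild acid, and ASIC2 mainly alters the properties of channels it joins. HCN channels are tetramers that open when the membrane hyperpolarizes and pass the inward current known as Ih, which sets firing rate and resting potential. HCN2 and HCN4 respond strongly to cyclic AMP and HCN3 hardly does. HCN4 is the main pacemaker subunit of the heart, and HCN2 in sensory neurons has been tied to inflammatory pain.

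In the GENCODE vM21 annotation of GRCm38 (mm10), Asic1 lies on the plus strand at chr15:99670368-99701130, Asic3 on the plus strand at chr5:24413392-24417835 and Asic2 on the minus strand at chr11:80880169-81968457. Hcn2 lies on the plus strand at chr10:79716634-79736108, Hcn4 on the plus strand at chr9:58823412-58863175 and Hcn3 on the minus strand at chr3:89146074-89160196. Hcn3 shares 711 bases with Pklr on the opposite strand, and Asic2 spans 6 other annotated genes, 1 of them on its own strand. Counts at the 3′ end do not separate the isoforms of a gene. RefSeq promoter windows (GRCm38.p6) were found for 5 of the 6 genes. The bases upstream of the start are shown for the 4 genes whose levels differed most between types, up to the first annotated exon, in capitals where the GC box GGGCGG or the RUNX core TGTGGT occurred on either strand:
Asic1, chr15:99691974-99692223, plus strand: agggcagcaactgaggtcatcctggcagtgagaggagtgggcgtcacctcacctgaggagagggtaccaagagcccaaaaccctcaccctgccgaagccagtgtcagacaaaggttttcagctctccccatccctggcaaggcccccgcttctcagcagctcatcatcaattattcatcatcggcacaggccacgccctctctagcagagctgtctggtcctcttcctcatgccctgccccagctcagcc
Asic3, chr5:24413201-24413391, plus strand: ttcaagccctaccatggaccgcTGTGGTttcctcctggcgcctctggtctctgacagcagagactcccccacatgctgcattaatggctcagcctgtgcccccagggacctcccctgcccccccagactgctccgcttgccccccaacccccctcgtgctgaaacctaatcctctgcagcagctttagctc
Hcn2, chr10:79716384-79716633, plus strand: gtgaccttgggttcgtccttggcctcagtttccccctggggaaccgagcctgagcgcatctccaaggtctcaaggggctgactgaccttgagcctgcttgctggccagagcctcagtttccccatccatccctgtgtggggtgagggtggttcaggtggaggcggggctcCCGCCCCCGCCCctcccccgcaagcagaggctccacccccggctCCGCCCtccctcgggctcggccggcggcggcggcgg
Hcn4, chr9:58822699-58822948, plus strand: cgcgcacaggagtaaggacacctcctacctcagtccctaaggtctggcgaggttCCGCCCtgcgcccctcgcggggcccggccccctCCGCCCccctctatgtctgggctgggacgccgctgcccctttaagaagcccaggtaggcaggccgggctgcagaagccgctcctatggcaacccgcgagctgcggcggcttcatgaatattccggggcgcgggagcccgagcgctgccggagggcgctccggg
The Asic1 window starts inside the annotated gene. Of all 32851 RefSeq windows of 250 bases, 32.7% held a GC box and 14.05% a RUNX core, the element bound by RUNX factors. The Hcn2 window held 3 GC boxes and the Hcn4 window 2. Their GC content, 70.4% and 71.2%, compares with a median of 52.4% over all windows. The Asic1 and Asic3 windows, with a GC content of 59.2% and 61.6%, held no GC box. The RUNX core occurred once in the Asic3 window and in none of the other 3. The E box CANNTG (in 66.2% of all windows) occurred 2 times in the Asic1 window, once each in the Asic3 and Hcn2 windows and not in that of Hcn4, and the TATA box TATAAA (12.4% of all windows) in none of the 4. A match of letters is not evidence of a bound site.

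The labels of the types were checked against fixed marker genes. The neuronal types carried the neuronal markers, while Fabp7, Apoe and Kcnj10 led in satellite glia and Cldn5, Pecam1, Flt1 and Cdh5 in endothelial cells. Satellite glia also held the highest level of the Schwann cell marker Mbp, at 559 UMIs per 1000000 UMIs (CPM). Not every marker followed the class names: Calca, a peptidergic marker, stood at 8599 CPM in NP_Mrgpra3, above PEP2_Htr3a.Sema5a (6715 CPM) and PEP3_Trpm8 (446 CPM), and the class comparisons use the study's labels as given. Neuronal RNA was not absent from the other cells: Nefh stood at 95.1 CPM in satellite glia and 98.9 CPM in endothelial cells. Those types were also shallow, with a median of 17729 and 16889 UMIs per cell against 30800.5 to 105150 in the neuronal types. Between libraries, 7 cell barcodes were shared.

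Levels were taken as CPM of the UMIs summed over the cells of a type in a library, and are given as mean ± SD over the 5 libraries. Each UMI counts 1 transcript end, so transcript length does not enter the count, but the efficiency of capture can differ between genes. The 6 genes fell into different patterns, as the plot of levels by cell type shows. Asic1 and Hcn2 were highest in NF_Pvalb, Asic3 in PEP2_Htr3a.Sema5a, Hcn4 in PEP3_Trpm8, Asic2 in NF2_Ntrk2.Necab2 and Hcn3 in Th. Asic1, Asic3 and Hcn4 ranged from near 0 to their highest level, and Asic2 and Hcn3 were found in every neuronal type.

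**Figure D1:**
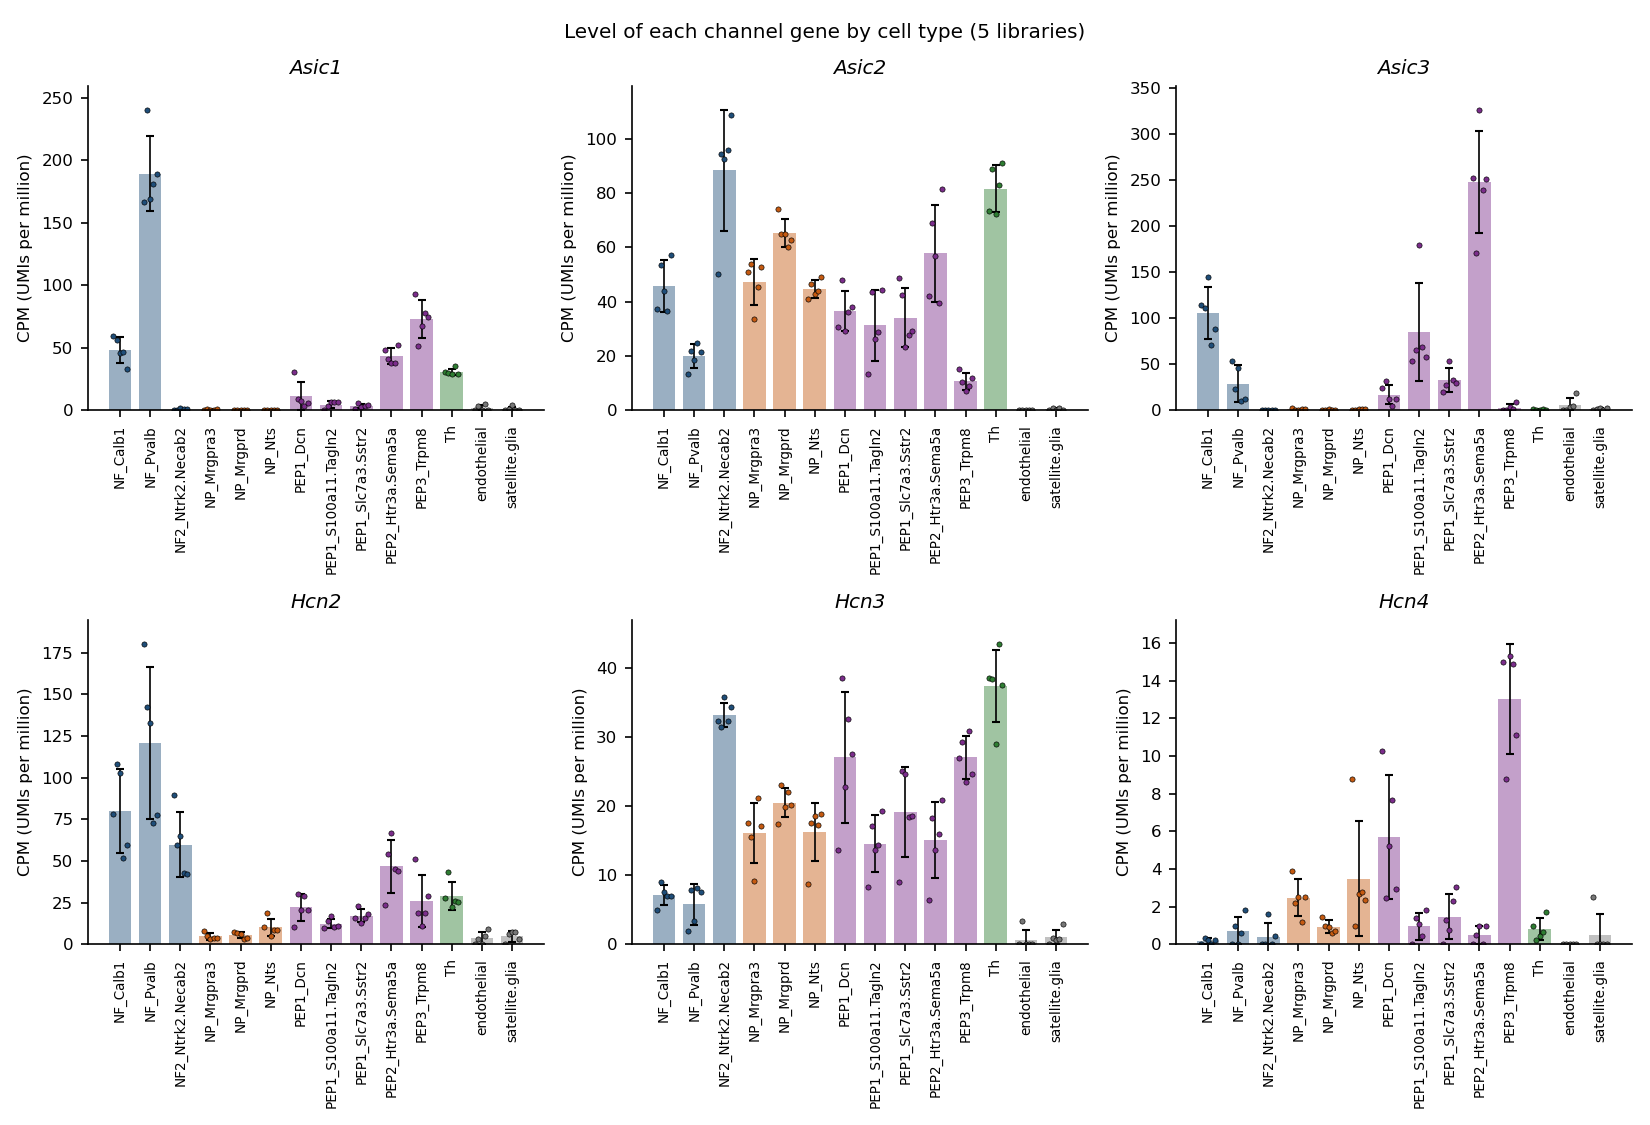
Level of each gene (CPM; linear axis, its range differs between panels) in the 14 cell types. Bars show the mean and error bars the SD over 5 libraries, cut at 0, points show libraries 1 to 5 from left to right, and colours mark NF (blue), NP (orange), PEP (purple), Th (green) and non-neuronal types (grey). Asic1 stands at 189 CPM in NF_Pvalb, Asic3 at 248 CPM in PEP2_Htr3a.Sema5a and Hcn4 at 13.0 CPM in PEP3_Trpm8.

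Asic1, which encodes the subunit that forms the main acid-gated channel of central neurons, was concentrated in 5 of the 12 neuronal types. In NF_Pvalb, the type marked by the parvalbumin gene of muscle-stretch afferents, the 5 libraries read 167, 240, 169, 181 and 189 CPM. Every one of the 113 cells of this type held an Asic1 UMI. In PEP3_Trpm8, the type marked by the cold-sensing channel gene Trpm8, the libraries read 93.1, 51.3, 67.3, 77.9 and 74.8 CPM. No library of PEP3_Trpm8 reached the lowest library of NF_Pvalb, and the step between them was 1.39 ± 0.18 on the log2 scale (SE; edgeR quasi-likelihood test, adjusted p = 9.7e-10). NF_Calb1 followed at 48.2 ± 10.4 CPM, a step that did not pass without library 4 or library 5 (edgeR adjusted p = 0.015 and 0.043) or in DESeq2 (adjusted p = 0.034). Then came PEP2_Htr3a.Sema5a at 43.4 ± 6.70 CPM and Th at 30.6 ± 2.64 CPM, and neither step from NF_Calb1 to Th passed the threshold of an adjusted p under 0.01 (0.74 and 0.028). The next step was a fall of 2.04 ± 0.26 on the log2 scale from Th to PEP1_Dcn (adjusted p = 2e-10).

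Below Th, Asic1 was scarce. PEP1_Dcn averaged 11.2 CPM, but library 1, which holds 4 cells of that type, read 30.8 CPM and the other libraries 3.48 to 9.03 CPM. NP_Mrgpra3, NP_Mrgprd, NP_Nts and NF2_Ntrk2.Necab2 were at 0.16 to 0.62 CPM, beside satellite glia (1.01 ± 1.80 CPM) and endothelial cells (1.65 ± 2.34 CPM). The satellite glia mean rests on library 3, at 4.16 CPM, with the others at 0 to 0.89 CPM. In NP_Mrgprd, the most deeply sequenced type, 17 of 900 cells held a UMI (1.89%, exact 95% interval 1.10 to 3.01%), against 7 of 249 satellite glia (2.81%). The share in NP_Mrgprd was no higher than in satellite glia, at a median of 105150 against 17729 UMIs per cell, and is not read as expression.

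Asic3, the subunit of the channel that is most sensitive to mild acid and is known from muscle and heart afferents, was highest in PEP2_Htr3a.Sema5a, a peptidergic type. There the libraries read 253, 170, 326, 239 and 251 CPM, and 1 cell held 107 UMIs. NF_Calb1 read 115, 111, 144, 70.4 and 88.5 CPM, so the libraries of the 2 types did not overlap, and the difference was 1.25 ± 0.24 on the log2 scale (edgeR adjusted p = 1.1e-05), a step that did not pass in DESeq2 (adjusted p = 0.014). PEP1_S100a11.Tagln2 reached a mean of 85.1 CPM with library 3 at 180 CPM and the other libraries at 53.1 to 68.9 CPM. PEP1_Slc7a3.Sstr2 (32.9 ± 12.5 CPM), NF_Pvalb (29.1 ± 19.8 CPM) and PEP1_Dcn (17.0 ± 10.6 CPM) came next, with no step between them past the threshold. PEP3_Trpm8, the 3 NP types, Th and NF2_Ntrk2.Necab2 were at 0.30 to 2.89 CPM, beside 1.65 CPM in satellite glia and 5.43 CPM in endothelial cells, where the latter rests on 4 UMIs.

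Asic2 was the broad member of its family. It was highest in NF2_Ntrk2.Necab2, the type marked by the BDNF receptor gene Ntrk2, with 50.2, 94.2, 92.6, 95.6 and 109 CPM, and in Th, the type of touch-sensitive C fibres, with 73.2, 88.7, 72.3, 82.8 and 90.9 CPM. The libraries of these types overlapped. NP_Mrgprd followed at 65.3 ± 5.20 CPM, with a UMI in 884 of 900 cells. Of the 11 steps between the 12 neuronal types in order, only the last ones passed the threshold, from PEP1_S100a11.Tagln2 (31.2 CPM) to NF_Pvalb (19.97 ± 4.32 CPM, adjusted p = 0.0032) and from NF_Pvalb to PEP3_Trpm8 (10.6 ± 3.001 CPM, adjusted p = 0.0013). In edgeR the former did not pass without library 2 or library 5 (adjusted p = 0.029 and 0.035) and the latter not without library 4 (0.029), and in DESeq2 the former did not pass (0.016). The step from NP_Mrgprd to PEP2_Htr3a.Sema5a passed in edgeR with the library as a block (adjusted p = 0.0071) and without library 5 (0.0086). The types with the most Asic1, NF_Pvalb and PEP3_Trpm8, thus had the least Asic2 of the neurons. Satellite glia were at 0.34 CPM, and endothelial cells held 0 of 941065 UMIs.

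Within the acid-sensing family, the make-up of the UMIs of Asic1, Asic2 and Asic3 differed between types, as the plot of family shares shows. Asic2 took 96.9 to 99.1% of them in the 3 NP types and NF2_Ntrk2.Necab2. Asic1 took 79.3% ± 6.9 in NF_Pvalb and 84.4% ± 4.0 in PEP3_Trpm8. Asic3 took 70.5% ± 7.2 in PEP2_Htr3a.Sema5a, 68.5% ± 13.6 in PEP1_S100a11.Tagln2 and 52.3% ± 6.0 in NF_Calb1. Th combined Asic2 (72.1% ± 2.8) with Asic1 (27.2% ± 2.7). At least 2 of the 3 genes were detected in 92.7% of PEP2_Htr3a.Sema5a cells and 83.9% of NF_Calb1 cells, and in 7.9% of NP_Mrgprd cells, whose median depth was higher (105150 against 73919 and 77900.0 UMIs). No satellite glia cell held more than 1 of them.

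**Figure D2:**
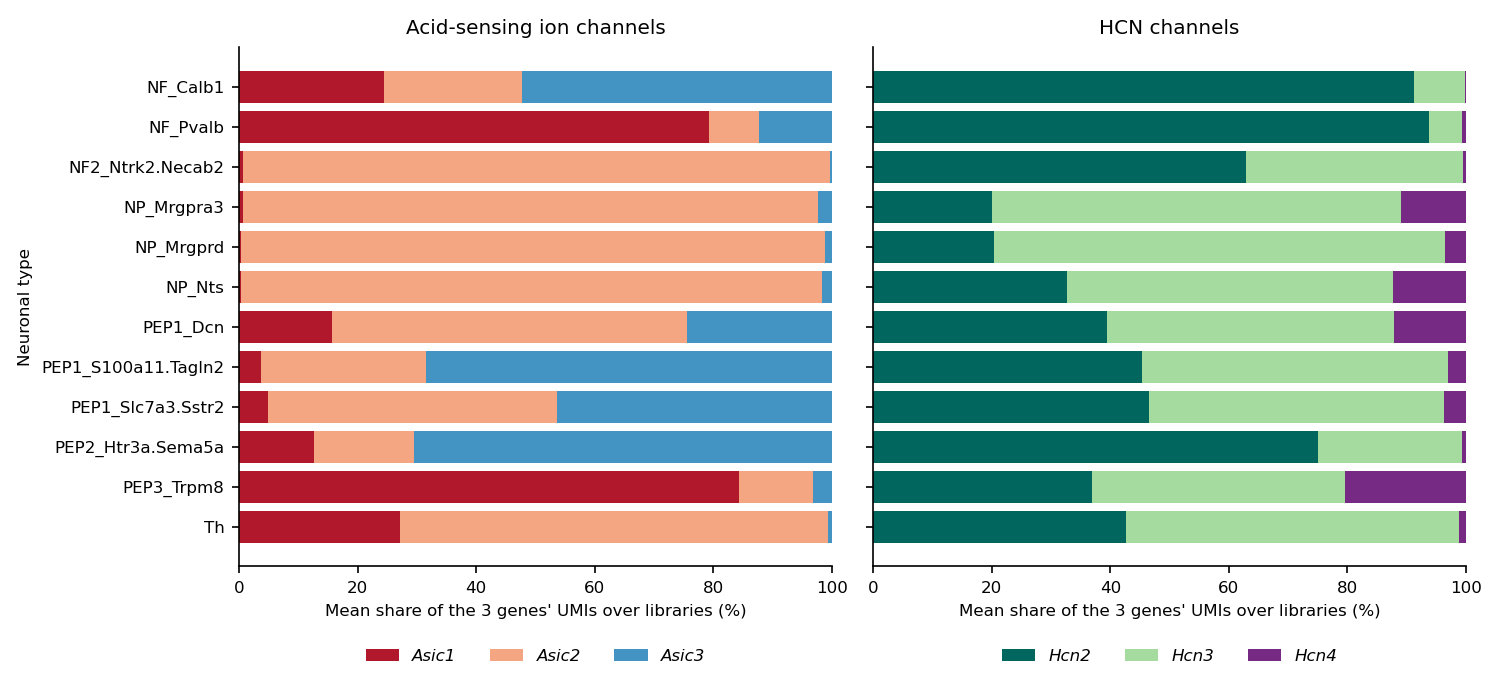
Mean share over 5 libraries (%, horizontal axis) of the UMIs of Asic1, Asic2 and Asic3 (left) and of Hcn2, Hcn3 and Hcn4 (right) that each gene took in the 12 neuronal types. Asic2 fills 96.9 to 99.1% of the bar in the NP types and NF2_Ntrk2.Necab2, and Hcn2 91.2 and 93.8% of the bar in NF_Calb1 and NF_Pvalb.

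Hcn2, the cyclic AMP-sensitive subunit, was highest in the neurofilament neurons. In NF_Pvalb the libraries read 180, 142, 133, 72.9 and 77.4 CPM, in NF_Calb1 78.1, 108, 103, 51.7 and 59.8 CPM, and in NF2_Ntrk2.Necab2 89.6, 59.5, 65.0, 42.9 and 42.2 CPM. In all 3 types libraries 4 and 5 were the lowest, so the libraries differed among themselves in the same direction. Outside them the level declined through PEP2_Htr3a.Sema5a (46.7 ± 15.9 CPM), Th (28.9 ± 8.26 CPM) and PEP3_Trpm8 (25.8 ± 15.5 CPM) to NP_Mrgprd (5.53 ± 1.69 CPM) and NP_Mrgpra3 (4.69 ± 1.90 CPM). No single step of the 13 in this order passed the threshold. With the library as a block 3 did: NF_Pvalb to NF_Calb1 (edgeR adjusted p = 0.0077), PEP2_Htr3a.Sema5a to Th (0.00096) and NP_Nts to NP_Mrgprd (0.0015). The step from PEP2_Htr3a.Sema5a to Th also passed without library 1 or library 2 (0.0071 and 0.004), and that from NP_Nts to NP_Mrgprd without library 3 (0.0065). Without the block, 48 of the 66 pairs of neuronal types differed in Hcn2. For the other genes of the list the count ran from 29 (Hcn4) to 55 (Asic1), so 48 is not particular to Hcn2. The share over all genes was not computed for these pairs. Satellite glia (4.77 ± 3.25 CPM) stood between these NP types, and neither differed from them past the threshold (edgeR adjusted p = 0.45 and 0.2).

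Hcn3, the subunit with little response to cyclic AMP, was more even. Its libraries read 38.5, 38.4, 29.0, 43.5 and 37.5 CPM in Th and 32.3, 31.4, 35.7, 32.3 and 34.3 CPM in NF2_Ntrk2.Necab2. PEP3_Trpm8 and PEP1_Dcn were both at 27.1 CPM. The NP types and the other PEP types stood between 14.5 and 20.5 CPM. The lowest neuronal levels were in NF_Calb1 (7.15 ± 1.43 CPM) and NF_Pvalb (5.78 ± 2.92 CPM), the types highest in Hcn2. The step down to NF_Calb1, from PEP1_S100a11.Tagln2, was 1.16 ± 0.23 on the log2 scale (adjusted p = 1.1e-05), and NF_Pvalb was still above satellite glia (1.05 CPM, adjusted p = 0.00011).

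Hcn4, the heart pacemaker subunit, was sparse, with 330 UMIs in all. In PEP3_Trpm8 the libraries read 15.0, 8.80, 15.3, 14.9 and 11.1 CPM, and 55 of 168 cells held a UMI (32.7%, exact 95% interval 25.7 to 40.4%), against 1 of 249 satellite glia. PEP3_Trpm8 was the shallowest neuronal type, at a median of 30800.5 UMIs per cell, so its share of cells with a UMI was high despite its depth. PEP1_Dcn followed at 10.3, 2.46, 5.21, 7.65 and 2.91 CPM, a step of 1.51 ± 0.40 on the log2 scale (adjusted p = 0.0013) that did not pass without library 5 (1.36, adjusted p = 0.015 in edgeR) or in DESeq2 (adjusted p = 0.011). NP_Nts was at 3.49 CPM, with library 1 at 8.77 CPM and the others at 0.95 to 2.76 CPM, and NP_Mrgpra3 at 2.47 ± 0.97 CPM. The other 8 neuronal types were at 0.16 to 1.47 CPM, where no step between neighbours passed the threshold.

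Of the UMIs of Hcn2, Hcn3 and Hcn4, Hcn2 took 93.8% ± 4.5 in NF_Pvalb and 91.2% ± 2.5 in NF_Calb1. Hcn3 took 76.1% ± 6.9 in NP_Mrgprd and 68.9% ± 9.0 in NP_Mrgpra3. In PEP3_Trpm8 the UMIs were divided among Hcn2 (36.9% ± 12.9), Hcn3 (42.6% ± 9.0) and Hcn4 (20.5% ± 6.4). The summed level of the 3 genes ran from 23.3 ± 5.3 CPM in NP_Mrgpra3 to 128 ± 43.0 CPM in NF_Pvalb.

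The first comparison asked whether the channels are neuronal in this ganglion. A gene was called where its adjusted p was under 0.01 and its change at least 2-fold, in edgeR's quasi-likelihood test on the sums with Benjamini-Hochberg adjustment over 11886 genes. In neurons against satellite glia, 4 of the 6 genes were called higher and none lower, where 50.7% of all genes were called in either direction. Asic2 was 6.15 ± 0.48 higher on the log2 scale (adjusted p = 7.5e-19) and Hcn3 4.02 ± 0.43 higher (2.3e-13). Asic1 (1.70 ± 0.54) and Hcn2 (1.58 ± 0.36) were called with smaller differences, in a contrast that averages log levels over types with much and with little of them. Without library 2, 4 or 5 in turn Asic1 was not called (1.51, 1.30 and 1.37 on the log2 scale, edgeR adjusted p = 0.025, 0.04 and 0.045), and without library 3, which holds the highest satellite glia value, its difference was 3.90. Asic3 (1.82 ± 0.73, adjusted p = 0.021) and Hcn4 (2.10 ± 1.07, adjusted p = 0.072) were not called. Asic3 was called with the library as a block (1.93 ± 0.66, edgeR adjusted p = 0.0072) and in DESeq2 (adjusted p = 0.0026), giving 5 of 6, and Hcn4 without library 1, which holds its 1 satellite glia UMI (edgeR adjusted p = 0.0092). Without the block, the p-values of these tests measure the spread between the sums of these 5 mice, with sums of the same mouse taken as independent. In neurons against endothelial cells, Asic2, Hcn2 and Hcn3 were called higher, 3 of 6 beside 50.3% of all genes. Hcn2 was 2.68 higher on the log2 scale, and it was not called without library 2 (2.64, edgeR adjusted p = 0.018) or library 3 (2.26, 0.027). Hcn3 was 3.94 higher, a value that rests on 1 endothelial UMI in library 2 and was 8.79 without that library. With endothelial Asic2 at 0, its mean over the neuronal types, 46.9 CPM, was at least 14.7-fold higher than the level that 3 counts over the 5 libraries would give.

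The second comparison set the classes of neurons against each other. In NF against NP, Hcn2 was 3.62 ± 0.16 higher on the log2 scale (adjusted p = 1.2e-31), Asic1 5.66 ± 0.69 higher (2.6e-11) and Asic3 3.33 ± 0.93 higher (0.001), while Hcn4 was 2.05 ± 0.41 lower in NF (9.5e-06 in the same test). Asic3 was not called without library 5 (3.34, edgeR adjusted p = 0.05) or in cells with at most 10% mitochondrial UMIs (2.81 ± 1.48, 0.082). These 4 of 6 genes stand beside 32.6% of all genes called. For Asic1 and Asic3 the class mean joins unlike types, since NF2_Ntrk2.Necab2 held almost none of either. In NF against PEP, Hcn2 was 1.81 ± 0.13 higher (adjusted p = 1.3e-20), and Asic3 (−1.57 ± 0.34, adjusted p = 4.1e-05) and Hcn4 (−2.41 ± 0.40, adjusted p = 3.1e-07) were lower, 3 of 6 beside 24.2% of all genes. Without library 5 Asic3 just missed the threshold (−1.51 ± 0.52, edgeR adjusted p = 0.01). Asic1 did not pass, with a 95% interval of −0.22 to 1.09 on the log2 scale. In NP against PEP, Hcn2 (−1.81 ± 0.17), Asic1 (−5.23 ± 0.23) and Asic3 (−4.91 ± 0.35) were lower in NP, 3 of 6 beside 19.2% of all genes. Asic2 and Hcn3 were called in none of the 3 class comparisons: their differences lay between −0.84 and 0.90 on the log2 scale, under 2-fold, with an adjusted p under 0.01 for 5 of these 6 differences.

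The third comparison set each neuronal type against the mean of the other 11, as the heat map of log2 differences shows. The neurofilament types NF_Calb1 and NF_Pvalb each had 5 of the 6 genes called, beside 23.4% and 25.4% of all genes. In NF_Calb1, Asic3 was 4.02 ± 0.19 and Asic1 3.08 ± 0.15 higher on the log2 scale, Hcn2 was 1.92 ± 0.15 higher, and Hcn3 (−1.51 ± 0.17) and Hcn4 (−2.79 ± 0.61) were lower. In NF_Pvalb, Asic1 was 5.31 ± 0.13 higher (adjusted p = 1.5e-48), Hcn2 2.52 ± 0.16 and Asic3 1.76 ± 0.30 higher, and Asic2 (−1.11 ± 0.17) and Hcn3 (−1.64 ± 0.21) lower. NF2_Ntrk2.Necab2 departed from both: Asic2 (1.26 ± 0.13) and Hcn2 (1.37 ± 0.20) were higher and Asic1 (−3.37 ± 0.55) and Asic3 (−4.13 ± 0.81) lower, 4 of 6 genes beside 17.9%. Hcn3 there lay just under the 2-fold limit and was not called (0.93 ± 0.16, adjusted p = 7.5e-07 in edgeR). It was called in DESeq2 (1.01, adjusted p = 8.2e-09) and, in edgeR, without library 2 or library 4 (1.01 and 1.02).

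In the non-peptidergic types most calls were of lower levels. Over all genes, 945 were called lower and 880 higher in NP_Mrgpra3, 1327 and 1005 in NP_Mrgprd and 1366 and 1110 in NP_Nts. Hcn2, Asic1 and Asic3 were called lower in NP_Mrgpra3 (3 of 6 beside 15.4%), in NP_Mrgprd (3 of 6 beside 19.6%) and in NP_Nts, where Hcn4 was also called higher (4 of 6 beside 20.8%). The differences ran from −1.33 to −2.57 on the log2 scale for Hcn2, from −3.43 to −5.20 for Asic1 and from −2.72 to −3.38 for Asic3. Hcn4 in NP_Nts was 1.12 ± 0.31 higher (adjusted p = 0.0017), and it was not called without library 1 (0.89, edgeR adjusted p = 0.014) or library 4 (1.01, 0.024).

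In the peptidergic types most calls were of higher levels, as were those over all genes, from 995 higher and 398 lower in PEP1_S100a11.Tagln2 to 1496 and 340 in PEP2_Htr3a.Sema5a. Asic3 was called higher in PEP1_Dcn (1.15 ± 0.30), PEP1_S100a11.Tagln2 (3.69 ± 0.21), PEP1_Slc7a3.Sstr2 (2.23 ± 0.24) and PEP2_Htr3a.Sema5a (5.39 ± 0.16, adjusted p = 3.2e-41), and not in PEP3_Trpm8 (−1.15 ± 0.54, adjusted p = 0.07). It was the only gene of the 6 called in PEP1_S100a11.Tagln2 and PEP1_Slc7a3.Sstr2, where 11.7% and 15.7% of all genes were called, except that Hcn2 was called lower in PEP1_S100a11.Tagln2 without library 3 (−1.05 ± 0.26, edgeR adjusted p = 0.00084). PEP1_Dcn added Hcn4 (1.87 ± 0.35), giving 2 of 6 beside 13.5%. Without library 2, Asic3 in PEP1_Dcn was not called (0.50 ± 0.37, edgeR adjusted p = 0.32). Of the 148 Asic3 UMIs in PEP1_Dcn, 1 cell held 46. PEP2_Htr3a.Sema5a added Asic1 (2.98 ± 0.15) and Hcn2 (1.13 ± 0.16), giving 3 of 6 beside 15.4%. Without library 3, Hcn2 in PEP2_Htr3a.Sema5a fell just under 2-fold (0.99, edgeR adjusted p = 2.9e-06). PEP3_Trpm8 had Asic1 (3.79 ± 0.17) and Hcn4 (3.52 ± 0.30, adjusted p = 3.4e-16) called higher and Asic2 (−2.27 ± 0.22) called lower, 3 of 6 beside 17.8%. In Th, Asic1 (2.48 ± 0.16), Asic2 (1.06 ± 0.12) and Hcn3 (1.11 ± 0.12) were higher and Asic3 (−3.67 ± 0.61) lower, 4 of 6 beside 17.7%.

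**Figure D3:**
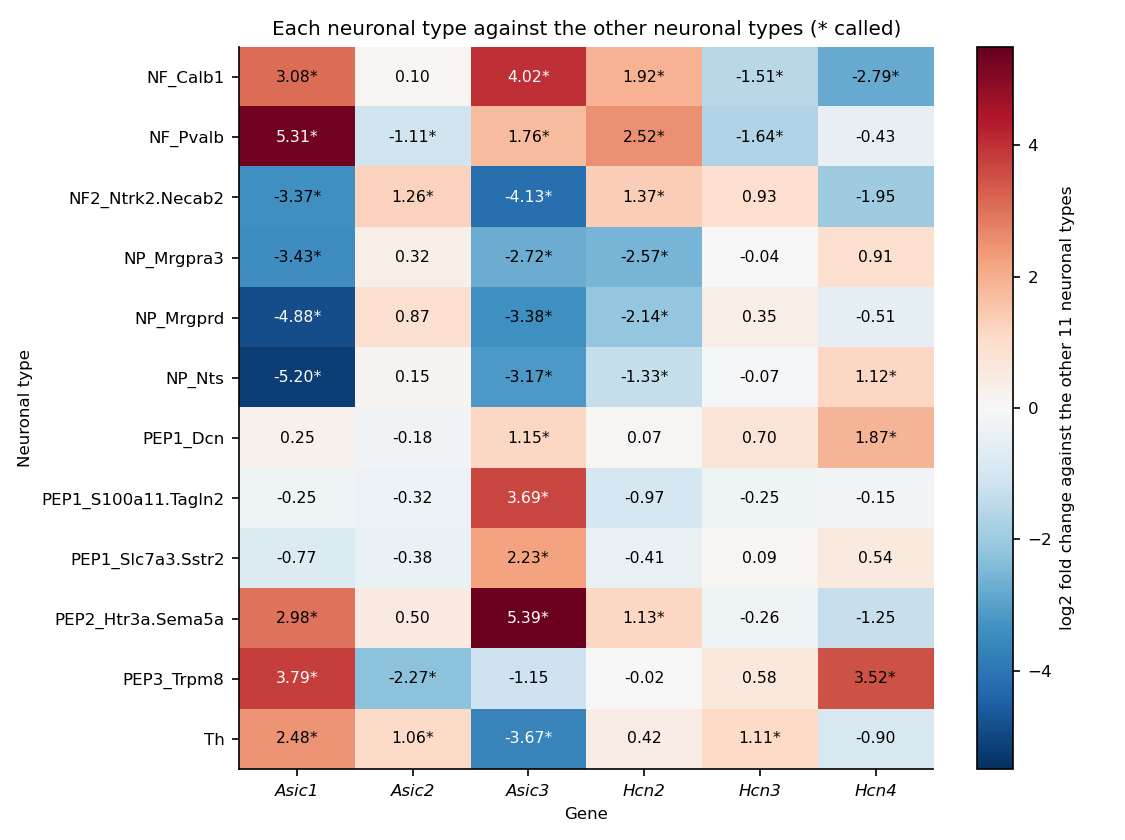
Log2 fold change of each gene in each neuronal type against the mean of the other 11 neuronal types (colour and printed value), from the edgeR fit over all sums. An asterisk marks a call at an adjusted p under 0.01 and at least 2-fold. Asic1 spans −5.20 in NP_Nts to 5.31 in NF_Pvalb, and Hcn3 −1.64 to 1.11.

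The spread between libraries differed among the genes. The biological coefficient of variation of the edgeR fit was 0.37 for Asic3 and 0.26 for Hcn2, above 94.9% and 87.8% of the genes tested, and 0.14 for Asic1 and 0.13 for Hcn3, near the median of 0.14. A mean of Asic3 or Hcn2 is therefore less certain than one of Asic1 or Hcn3 at a like level.

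The UMIs of a gene were not always spread evenly over the cells of a type. If all cells of a type in a library shared 1 rate per UMI, 92.9% of the PEP2_Htr3a.Sema5a cells would hold an Asic1 UMI at their depths, and 42.2% did. In these cells the richest 10% held 59.3% of the Asic1 UMIs. The shortfall recurred for Asic3 in NF_Pvalb (22.1% of cells against 59.3%), in NF_Calb1 (67.2% against 98.9%) and in PEP1_S100a11.Tagln2 (63.0% against 92.6%). It also recurred for Asic3 in PEP1_Dcn (24.5% against 49.1%) and for Asic1 in NF_Calb1 (63.3% against 92.0%). For Asic1 in NF_Pvalb, Hcn3 in Th and Hcn4 in PEP3_Trpm8 the shares were close to those of 1 rate (100% against 99.7%, 84.1% against 84.9% and 32.7% against 33.4%). 

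**Figure D4:**
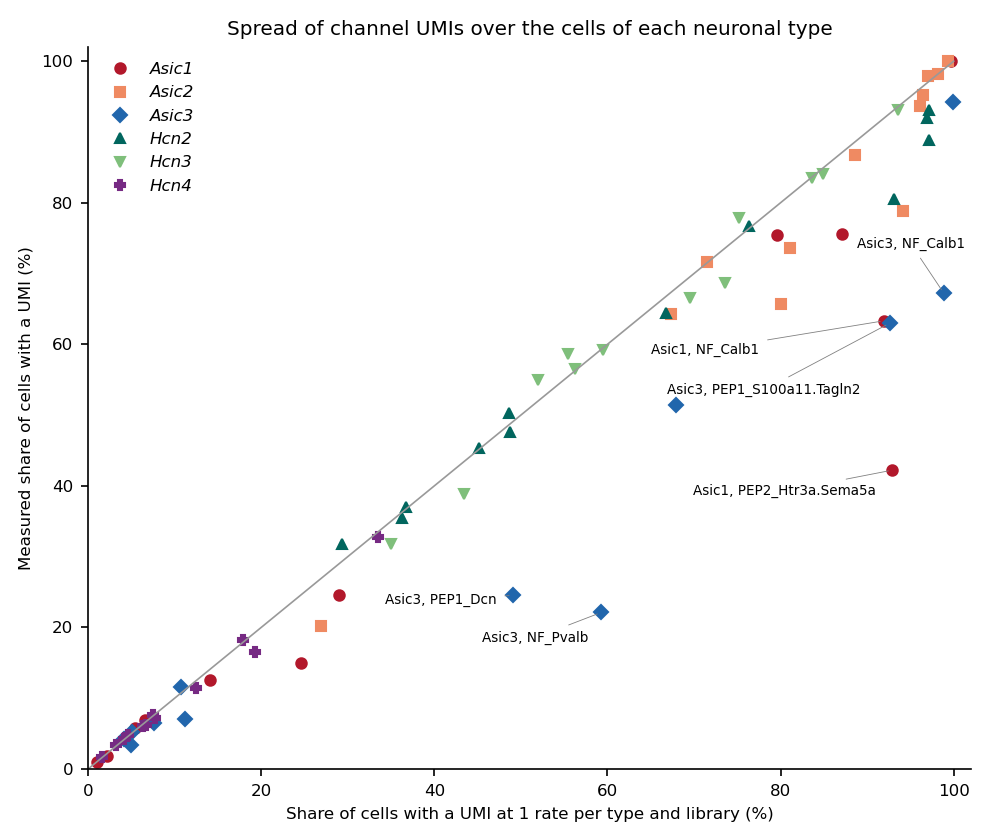
Measured share of cells with a UMI (%, vertical axis) against the share that 1 rate per type and library would give at each cell's depth (%, horizontal axis), for 6 genes in 12 neuronal types. The line marks equality, and the labelled points, led by Asic1 in PEP2_Htr3a.Sema5a at 42.2% against 92.9%, fall furthest below it.

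The PEP2_Htr3a.Sema5a cells with and without an Asic1 UMI were then compared on the fixed markers and the other channels, a comparison chosen after the uneven spread was seen. The 87 cells with a UMI had a median of 87921 UMIs and the 119 without one 66258, so the groups also differ in depth. Tac1, the gene of substance P, stood at 294, 868, 463, 784 and 391 CPM in the cells with Asic1 and at 13.5, 17.5, 33.3, 30.5 and 10.9 CPM in those without, in libraries 1 to 5. No library overlapped. Calca, the gene of the peptide CGRP, was at 8571 against 4448 CPM over all such cells and higher in 5 of 5 libraries. Among the channels, Asic3 was higher in the cells with Asic1 (285 against 204 CPM, 5 of 5 libraries), while Asic2 (51.4 against 73.4 CPM) was lower in 5 of 5 libraries and Hcn2 (34.1 against 63.7 CPM) in 4 of 5. An exact sign test over 5 libraries gives a two-sided p of 0.0625 when all 5 go the same way, the smallest it can give.

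**Figure D5:**
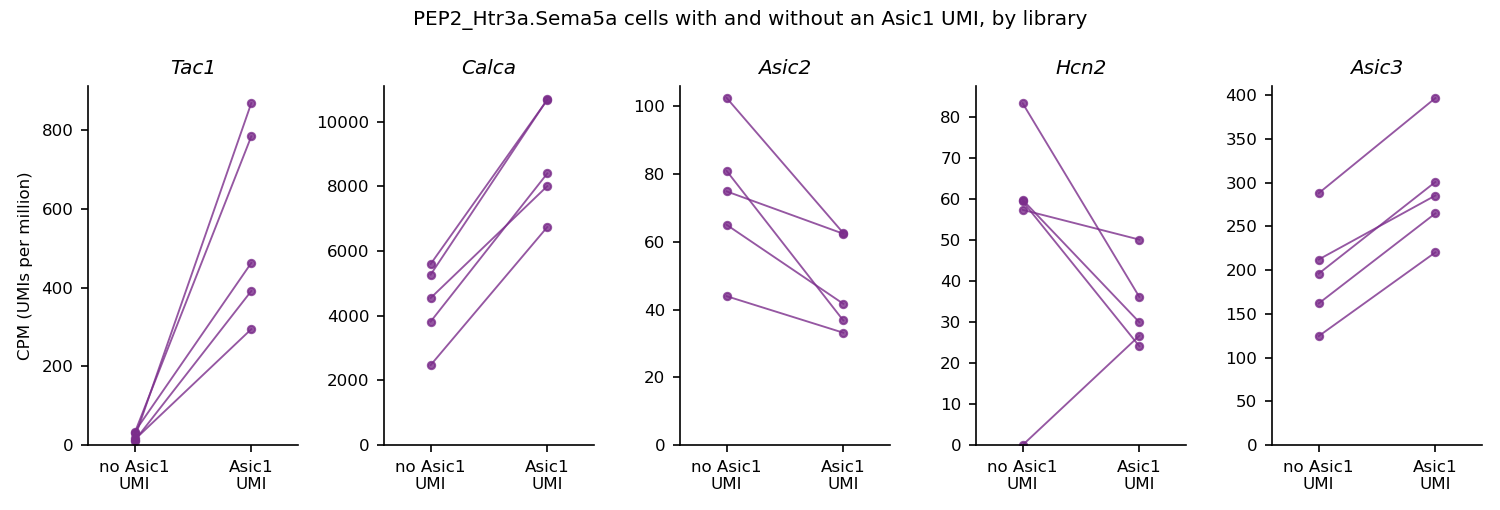
CPM (vertical axes, linear from 0, ranges differ) of Tac1, Calca, Asic2, Hcn2 and Asic3 in PEP2_Htr3a.Sema5a cells without and with an Asic1 UMI, with 1 line for each of 5 libraries. Tac1 lies between 10.9 and 33.3 CPM without and between 294 and 868 CPM with an Asic1 UMI.

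Other types with uneven spread gave different splits. In NF_Calb1, the 121 cells with an Asic3 UMI had more Asic1 than the 59 without (61.6 against 12.6 CPM) and more Pvalb (180 against 32.9 CPM). Each was higher in 5 of 5 libraries, at median depths of 75962 and 83389 UMIs. Split by Asic1 instead, Asic3 stood closer, at 115 CPM in the 114 cells with an Asic1 UMI and 96.3 CPM in the 66 without. An Asic3 UMI was found in 71.9% and 59.1% of them, a share higher with Asic1 in 4 of 5 libraries. In NF_Pvalb, the 25 cells with an Asic3 UMI were not higher in Calca (37.3 against 40.5 CPM) or Asic1 (152 against 202 CPM). In PEP3_Trpm8, the 55 cells with an Hcn4 UMI were close to the other 113 in Asic1 (76.7 against 70.5 CPM) and Hcn3 (24.9 against 28.6 CPM), with no direction shared by all libraries. Doublets were not called, and their part in these splits was not tested.

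Genes with the most similar pattern to each of the 6 were named by Pearson's r of mean log2(CPM + 1) over the 12 neuronal types, among 9948 genes, as a description. For Hcn2 the closest genes were Ric3 (r = 0.98), Dhx30 (0.98) and Iqsec1 (0.98). For Asic1 they were Zcwpw1 (0.93), Trp53bp1 (0.92) and Dixdc1 (0.92), and for Asic3 Arhgap32 (0.92), Ccl7 (0.91) and Cdc27 (0.91). Hcn4 was closest to Tmem106c (0.93), Ndrg1 (0.92) and Nradd (0.89), Hcn3 to Syt1 (0.91), Manf (0.90) and Lrrc3 (0.88), and Asic2 to Raph1 (0.89), Rexo2 (0.89) and Tusc5 (0.88). Among the channels themselves, r over the same 12 types was 0.74 for Hcn2 with Asic1 and −0.35 for Hcn2 with Hcn3. The lowest values among the 6 genes were −0.62 for Asic2 with Hcn4 and −0.60 for Asic3 with Hcn3.

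A list of channel partners and other genes known to respond to protons was examined beside the 6 genes. Of its 23 symbols, 18 were found and 14 passed the filter on low counts. In NF against NP, 7 of these 14 were called, 4 higher and 3 lower, beside 32.6% of all genes. In NF against PEP 7 were called, 3 higher and 4 lower, beside 24.2%. In NP against PEP 6 were called, 1 higher and 5 lower, beside 19.2% of all genes, of which 662 were higher and 1619 lower. The largest differences were in Trpv1, the heat, capsaicin and proton receptor (−7.26 ± 0.32 in NF against PEP), and in the acid-inhibited background potassium channel gene Kcnk3 (6.66 ± 0.26 in NF against NP). Kcnk3 was not highest in NF, where the types stood at 32.5 to 47.3 CPM. The PEP types ranged from 3.11 CPM in PEP2_Htr3a.Sema5a to 264 CPM in PEP1_Dcn. The potassium channel gene Kcnk1 was 4.23 ± 0.11 higher in NF than in NP. Kcnk2, which encodes the mechanically gated potassium channel TREK-1, fell by 4.54 on the log2 scale in NF against PEP.

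Among the partners, Pex5l, which encodes the HCN accessory protein TRIP8b, was called higher in NF than in NP (1.36 ± 0.09) and in PEP (1.04 ± 0.08). Stom, whose product stomatin binds acid-sensing channels, was lower in NF than in NP (−4.06 ± 0.22) and in PEP (−2.65 ± 0.28). Pick1, which binds ASIC1 and ASIC2, Stoml1, Stoml2 and Kctd3, a partner of HCN3, were called in none of the 3 class comparisons, with differences between −0.84 and 0.98 on the log2 scale. Kcne2 and Asic4 held 7 UMIs each in the whole table, and Asic5 and Stoml3 were not analysed here.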

How the data were processed

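The deposited UMI counts were made by the authors from droplet 3′ libraries of dissociated ganglia with Cell Ranger, on mm10 with UCSC gene models, and the cells were clustered with Seurat, per the submitters’ processing notes and the study’s methods. The authors kept 3352 annotated cells, and the deposited table holds raw whole counts with no normalization. The annotation spells 1 type NF_Ca1b1, written here NF_Calb1. Libraries are the 5 identifiers in the cell names, numbered in that order. They were tied to no single sample label. The p-values measure the spread between the sums of these 5 mice, and without the block the sums of 1 mouse are taken as independent. The 4 rows without a mouse gene name, with 6.37e-05% of the UMIs, were left out. No column of per-sample values was left unused.

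The members and lists were chosen with earlier results of these data known. Named beside the 6 genes were, for each of them, the 3 genes of most similar pattern over the neuronal types, and from the partner list the 6 genes of largest change called in a class comparison, with the family and partner genes. Some genes under this rule are not reported here.

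Counts were summed over the cells of a type in a library (70 sums of 3 to 463 cells) and scaled by the total to CPM. They were tested with edgeR 4.0.16 (TMM, filterByExpr by type, quasi-likelihood test) in R 4.3.3, with type as the only term, and p-values were adjusted by the method of Benjamini and Hochberg over the 11886 genes tested. Intervals of shares are exact binomial at 95% and, like the floor of 3 counts for a 0, cover counting error only. Depth was 13050375 to 88886919 UMIs per library.

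Same-numbered sums come from the same mouse. The correlation of their deviations from the type means had a median of 0.09 (−0.03 to 0.45), against −0.02 for sums of different mice, so a fit with the library as a block was run. The other alternatives were DESeq2 1.42.0, a fit of all genes with a UMI, a fit without sums of under 10 cells, cells with at most 10% mitochondrial UMIs, a threshold of 0.05 and leaving out each library. Shares of cells were also computed after thinning each cell to 10000 UMIs. Promoter windows are from RefSeq, and genome positions from GENCODE vM21.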

Additional observations from a re-analysis of the deposited data

Results flagged for a closer look

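In 11 of the 82 groups of 5 libraries (13.4%), a library stood further from the others than Dixon's critical value of 0.71 allows. The chance rate of about 5% holds for normally distributed values and not for counts near 0, so the 13.4% cannot be set against it. A group with 1 UMI in all is flagged by construction, as were Hcn3 in endothelial cells and Hcn4 in satellite glia. Library 1, the smallest, gave 5 of the 11. It read 30.8 CPM for Asic1 in PEP1_Dcn (4 cells), against 3.48 to 9.03 CPM in the others, and 50.2 CPM for Asic2 in NF2_Ntrk2.Necab2 (3 cells), against 92.6 to 109 CPM. In NP_Nts (10 cells) it read 8.77 CPM for both Hcn3 and Hcn4, against 17.3 to 18.9 CPM and 0.95 to 2.76 CPM. Its single Hcn4 UMI in satellite glia gave 2.52 CPM, against 0 elsewhere.

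Library 3 read 180 CPM for Asic3 in PEP1_S100a11.Tagln2, against 53.1 to 68.9 CPM in the others. It also read 4.16 CPM for Asic1 in satellite glia, where the others reached at most 0.89 CPM, and 1.62 CPM for Hcn4 in NF2_Ntrk2.Necab2, where the type held 2 UMIs in all. Library 2 read 43.3 CPM for Hcn2 in Th, against 22.3 to 27.9 CPM, and 3.31 CPM for Hcn3 in endothelial cells, from the only UMI there. Library 5 read 18.5 CPM for Asic3 in endothelial cells, against at most 4.96 CPM in the others, with 4 UMIs in all.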

How the results depend on the processing

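Asic2 in neurons against endothelial cells, whose fitted difference is against a group at 0, was called under every alternative and is not counted here. The other 54 calls of the 6 genes kept their direction under every alternative run. None of these was lost in DESeq2, with no filter on low counts, with sums of at least 10 cells or with the replicate block. In cells with at most 10% mitochondrial UMIs, 1 was lost. The threshold of 0.05 uses the same fit, so it cannot lose a call or change its direction. Leaving out 1 library lost 1 to 3 calls, each given beside its result. The number of genes called then ran from 3 to 5 in neurons against satellite glia (4 with all libraries). It ran from 2 to 3 in neurons against endothelial cells, NF against PEP and PEP2_Htr3a.Sema5a (3 with all libraries). In NF against NP and NP_Nts it ran from 3 to 4 (4 with all libraries), and in NF2_Ntrk2.Necab2 from 4 to 5 (4). It ran from 1 to 2 in PEP1_Dcn (2 with all libraries) and from 1 to 2 in PEP1_S100a11.Tagln2 (1 with all libraries). The other comparisons kept their number. Beside the values in the report, the block (the same mouse in each type) changed no other call. DESeq2's size factors moved the median log2 difference of all genes from −0.02 to 0.22 in NF against NP and from 0.60 to 0.30 in neurons against endothelial cells.

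The share of cells with a UMI depends in part on depth. After thinning to 10000 UMIs per cell, the mean share was 83.6% for Asic1 and 61.4% for Hcn2 in NF_Pvalb, 59.9% for Asic2 in NF2_Ntrk2.Necab2, 71.5% for Asic3 in PEP2_Htr3a.Sema5a, 31.2% for Hcn3 in Th and 12.8% for Hcn4 in PEP3_Trpm8. In endothelial cells, with 941065 UMIs in all, 3 counts amount to 3.19 CPM, which limits what can be said of Asic3, Hcn3 and Hcn4 there.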
